A study of Mus musculus with 6 samples.

Results

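A set of 40 genes of the type I interferon response was followed in mouse CD8+ T cells kept with or without palmitate, a saturated long-chain fatty acid. The genes were named one by one as known targets, sensors and transcription factors of this response, and 40 of the 40 were found by symbol among the 29370 gene rows of the count matrix. All 40 also passed the filter on low counts that left 12068 genes for testing. The cells came from wild-type mice, from pancreas, spleen and lymph nodes together, and CD8+ T cells are the cytotoxic arm of the T cell compartment. One group of 3 libraries was made from cells given 100 µM palmitate in T cell medium for 48 h, and the other group of 3 libraries from control cells. The sources used here do not give the vehicle of the control cells, the mouse strain, age and sex, or how many animals were pooled. The labels do not state that libraries of a group came from separate animals or cultures, so each test rests on a spread between libraries that may be technical in origin.

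Type I interferons are secreted proteins, interferon beta and the interferon alpha family, that cells make when they sense foreign or misplaced nucleic acid. They bind the receptor chains encoded by Ifnar1 and Ifnar2, whose kinases JAK1 and TYK2 act on STAT2 among others. STAT2 and IRF9 are parts of the complex ISGF3, which binds the interferon-stimulated response element (ISRE) in front of target genes, whereas the GAS element is used mainly after interferon gamma. The products include nucleic acid sensors, enzymes that halt translation or degrade RNA, inhibitors of virus entry and release, and feedback regulators such as USP18 that damp the receptor. In CD8+ T cells type I interferon is known to act during priming and to shape survival and effector function.

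The promoters of 4 members show the letters that these factors read, and were chosen after the values were seen: Irf1 has the smallest adjusted p of the set, Isg15 is a classical ISRE target, and Ifit3 and Ifit3b are the members with the largest fold changes. The sequences are those of RefSeq on the GRCm38.p6 build, 5′ to 3′ along the gene's strand. Capitals mark a GAS match in Irf1 and ISRE core matches in the others, and the 3 matches of Isg15 overlap in 1 run.
Irf1, chr11:53769764-53770013, plus strand: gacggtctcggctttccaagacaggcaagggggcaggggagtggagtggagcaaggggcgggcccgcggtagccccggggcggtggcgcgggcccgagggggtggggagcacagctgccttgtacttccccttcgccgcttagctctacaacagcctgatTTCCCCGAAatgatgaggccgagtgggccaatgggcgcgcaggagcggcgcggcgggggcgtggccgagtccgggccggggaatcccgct
Isg15, chr4:156200819-156201068, minus strand: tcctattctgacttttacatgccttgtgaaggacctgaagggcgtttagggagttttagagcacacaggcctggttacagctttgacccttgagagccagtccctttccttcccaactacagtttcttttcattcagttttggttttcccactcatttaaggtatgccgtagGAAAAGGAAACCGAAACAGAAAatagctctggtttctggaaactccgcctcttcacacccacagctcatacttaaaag
Ifit3, chr19:34583329-34583448, plus strand: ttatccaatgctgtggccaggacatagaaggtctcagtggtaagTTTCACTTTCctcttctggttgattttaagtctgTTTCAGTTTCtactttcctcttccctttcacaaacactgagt
Ifit3b, chr19:34607725-34607844, plus strand: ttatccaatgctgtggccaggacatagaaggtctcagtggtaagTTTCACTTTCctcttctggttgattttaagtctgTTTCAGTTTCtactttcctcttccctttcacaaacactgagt
The Irf1 and Isg15 stretches are the 250 bases before the annotated start. The Ifit3 stretch runs from −200 to −81 and the Ifit3b stretch from −232 to −113, counted from each annotated start. These stretches are 120 bases each and identical at 120 of 120 positions. They lie at different distances from the start, so the identity describes these stretches alone. The bases after the annotated start were found in a transcript for Irf1, Isg15 and Ifit3, and not for Ifit3b.

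RefSeq promoter entries were matched by symbol for 31 of the 40 members. In the 250 bases before the start, the ISRE core was searched on both strands as GAAA, any 2 bases and GAAA (read on the other strand as TTTC, any 2 bases and TTTC), and it stood in 12 of the 31 members (Stat2, Isg15, Trim30a, Ifit1, Ifit3, Ifit3b, Oas1a, Oas3, Rsad2, Bst2, Slfn5 and Slfn8). Of all 27025 genes with an entry, 936 (3.46%) held it. The GAS letters TTCNNNGAA, which read the same on both strands, stood in 7 of the 31 (Irf1, Ifit2, Oas1a, Eif2ak2, Bst2, Samhd1 and Isg20), beside 2197 of the 27025 genes (8.13%). These are matches of letters in a fixed window, not measured binding sites.

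The libraries held 16724588 to 29362276 counts, with palmitate 3 the shallowest. Markers of CD8+ T cells (8 genes) summed to 1703 to 1941 CPM (counts scaled to a common library total) in the controls and 2106 to 2369 CPM with palmitate, with 5 of the 8 called higher. Of all tested genes, 11.1% were called higher and 11.7% lower, and 21.6% lay wholly above the controls and 21.2% wholly below. Cd8a stood at 249.9 to 378 and 476 to 545 CPM, whereas Cd2 overlapped (167 to 237 and 194 to 211 CPM) and Thy1 lay lower with palmitate (424 to 430 and 357 to 404 CPM). Markers of B cells and antibody-secreting cells (12 genes) summed to 176 to 245 CPM in controls and 281 to 318 CPM with palmitate, and 3 of the 11 tested were called higher. Most of that sum was Ighm (157 to 227 and 231 to 250 CPM). Monocyte and macrophage markers summed to 0.846 to 1.51 and 1.05 to 1.93 CPM, with C1qa, C1qb and C1qc at 0. Summed markers lay higher with palmitate, without overlap, also for erythroid cells (1.41 to 3.89 and 5.55 to 11.2 CPM) and CD4 T cells (1.96 to 2.81 and 3.70 to 6.72 CPM), with 1 gene called higher in each list, and lower for NK cells (168 to 186 and 144 to 162 CPM). Nearly all of the NK sum was Eomes (166 to 185 and 141 to 161 CPM). The other NK markers stood at 0.0344 to 1.49 CPM, and each overlapped between the groups. Plasmacytoid dendritic cell markers summed to 7.86 to 11.6 and 5.81 to 16.5 CPM, with Klk1 at 0 and 1 of the 3 tested called higher. The part of these cells in the results below was not tested. In such bulk samples, fewer cells of a type and less RNA per cell cannot be told apart.

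The 40 genes did not change in 1 direction. With edgeR's quasi-likelihood test and Benjamini-Hochberg adjustment at 0.05, 6 of the 40 members were called higher with palmitate (Irf1, Irf9, Zbp1, Rtp4, Ddx58 and Irf7), 2 were called lower (Trim25 and Eif2ak2) and 32 were not called. Of all 12068 genes tested, 22.9% were called, 11.1% higher and 11.7% lower, so that 8 of 40 members lies near the share of all genes. The estimates ran from −0.997 for Usp18 to 1.60 for Ifit3b on the log2 scale, with 24 above 0 and 16 below. Their median was 0.15, beside 0.02 for all tested genes.

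The palmitate libraries all lay above the controls for 10 members and all below for 3, and overlapped for 27. Of all tested genes, 21.6% lay above without overlap and 21.2% below. The 32 members that were not called include 4 that lay wholly above (Ifit3b, Ifit3, Samhd1 and Dtx3l) and 1 that lay wholly below (Ifitm3). The counts depended on single libraries: without palmitate 1 the test called 14 members higher and 1 lower (11.7% of all genes called), without control 3 it called 0 and 0 (5.59%), and without palmitate 3 it called 0 higher and 1 lower (10.6%). By unadjusted p at 0.05 the same test gave 10 members above and 2 below without control 3 (13.8% and 14.2% of all genes), and 8 and 4 without palmitate 3 (15.8% and 16.1%). Without control 2 it called 2 higher and 0 lower (10.9%), and without palmitate 2 it called 1 and 2 (13.5%). With replicate number as a block, 11 were called higher and 7 lower, where the block called 33.1% of all genes (16.5% higher and 16.6% lower). DESeq2 called 9 members higher and 3 lower (12.1% and 16.1% of all genes), and limma-voom 5 and 2 (11.1% and 11.3%). Within edgeR, upper-quartile scaling gave 9 and 2 (13.7% and 8.72%), a minimum mean of 5 CPM 9 and 2 (14.1% and 13.6%), no filter 5 and 2 (6.22% and 7.24%) and transcript sums with length offsets 9 and 2 (9.25% and 10.4%).

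**Figure D1:**
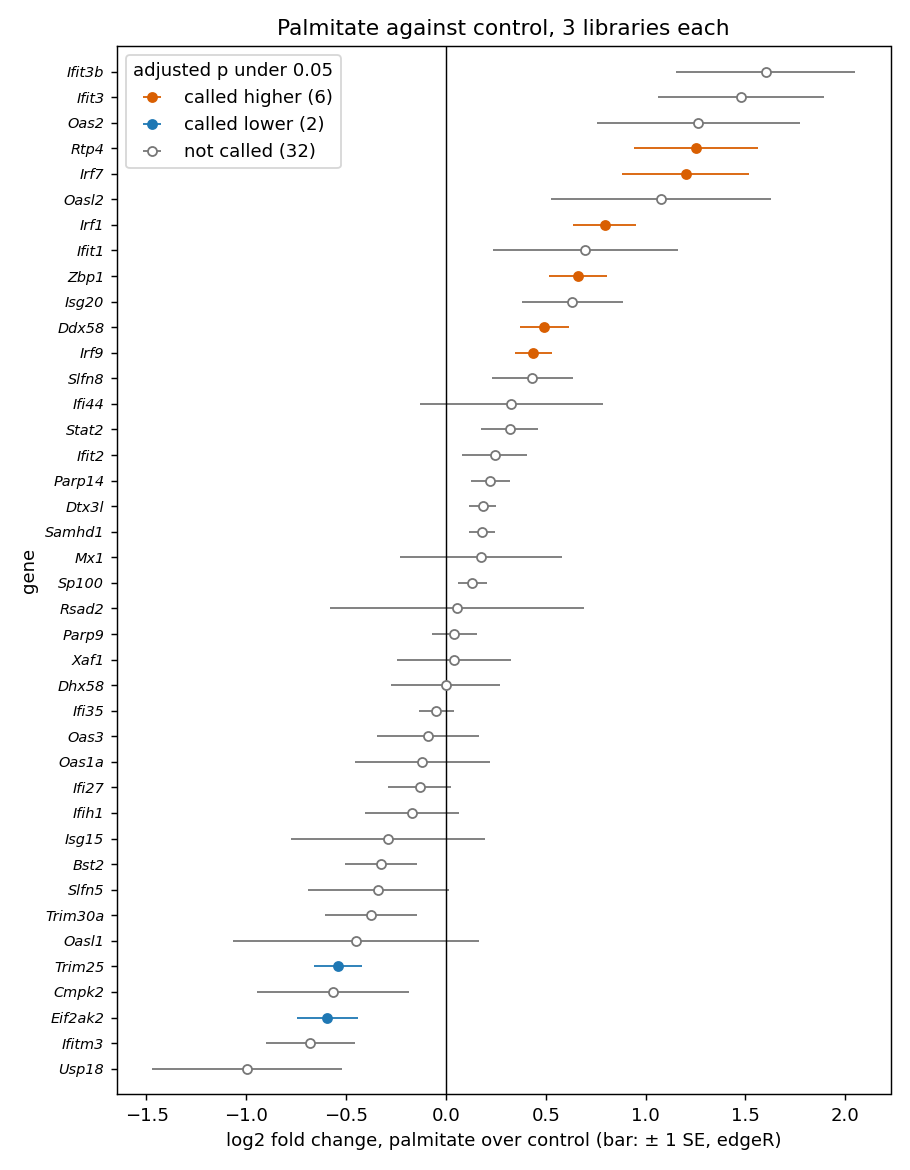
Log2 fold change of each of the 40 interferon response genes, palmitate over control, from edgeR's fit on 3 libraries per group, with bars of 1 standard error either way and filled points for genes with an adjusted p under 0.05. The 6 genes called higher lie between 0.44 and 1.25, and several of the largest estimates, such as Ifit3b at 1.60 and Usp18 at −0.997, carry wide bars and open points.

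The transcription factors of the response were the role with most calls, 3 higher of 5 (Irf1, Irf9 and Irf7), and 5 of 5 estimates lay above 0. Irf1 encodes a factor induced by both interferon types that binds ISRE-like sites. It stood at 227, 142 and 175 CPM in controls 1 to 3 and at 303, 304 and 338 CPM in palmitate libraries 1 to 3. All 3 palmitate values lie above all controls, and the palmitate libraries differ less among themselves than the controls do. Irf1 rose by 0.80 ± 0.16 on the log2 scale (SE, adjusted p = 0.0146). With each library left out in turn, 4 of 6 fits kept the call, and it was lost without control 3 (adjusted p = 0.0688) or palmitate 3 (0.0525).

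Irf9 encodes the DNA-binding part of ISGF3. Its values were 67.0, 57.2 and 65.3 CPM in the controls and 77.3, 89.5 and 89.96 CPM with palmitate, without overlap. The rise was 0.44 ± 0.09 on the log2 scale (adjusted p = 0.0156), and it was lost without control 3 (0.0611), palmitate 2 (0.0519) or palmitate 3 (0.0606). Irf7, the factor that drives interferon alpha genes, stood at 14.7, 15.0 and 16.7 CPM in the controls and 19.0, 44.3 and 43.5 CPM with palmitate. Palmitate 1 lies just above the controls and palmitate 2 and 3 far above them. Irf7 rose by 1.20 ± 0.32 (adjusted p = 0.0408). The call stood in 1 of the 6 leave-one-out fits, the one without palmitate 1 (1.501, adjusted p = 0.00344), and it was lost with the block (adjusted p = 0.0565), with limma-voom (0.0874) and with no filter on low counts (0.131). In the other 5 fits that left out a library the adjusted p was 0.106 to 0.145. The matrix held 83.5% of the reads that the transcript tables assign to Irf7.

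Stat2, whose product is a part of ISGF3, was not called. It stood at 39.4, 44.9 and 43.0 CPM in controls and 41.5, 61.3 and 56.0 CPM with palmitate, so that palmitate 1 falls among the controls. The estimate was 0.32 ± 0.14 (adjusted p = 0.138), with 0.0377 in the block fit and 0.0296 without palmitate 1. The remaining factor, Sp100, a nuclear body protein, lay 0.13 ± 0.07 above the controls on the log2 scale (adjusted p = 0.229).

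Of the 4 nucleic acid sensors, Zbp1 and Ddx58 were called higher and Ifih1 and Dhx58 were not called. Zbp1 encodes a sensor of Z-form nucleic acid that can start necroptosis. It stood at 51.0, 47.8 and 51.0 CPM in the controls and at 60.4, 89.2 and 87.5 CPM with palmitate, all palmitate values above all controls. The rise was 0.66 ± 0.14 (adjusted p = 0.0182), kept without control 1 or palmitate 1 and lost without control 2, control 3, palmitate 2 or palmitate 3 (adjusted p = 0.0538 to 0.0718). Ddx58 encodes RIG-I, the sensor of short viral RNA with a free end. Its values were 55.4, 47.2 and 56.1 CPM against 62.0, 78.5 and 82.9 CPM, again without overlap. The rise was 0.49 ± 0.12 (adjusted p = 0.0256), and it was lost in the same 4 leave-one-out fits (0.0764 to 0.0878).

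Ifih1 encodes MDA5, the sensor of long viral RNA. It stood at 47.8, 55.7 and 58.1 CPM in the controls and 30.6, 53.8 and 59.7 CPM with palmitate. Palmitate 1 is the lowest of the 6 and palmitate 3 the highest, and the log2 fold change was −0.17 ± 0.24 (adjusted p = 0.637). For Dhx58, which encodes the regulator LGP2, the estimate was −0.00 ± 0.27 (adjusted p = 0.997).

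In the ubiquitin-like and ubiquitin group, 1 of 7 members was called, Trim25, and it was lower. TRIM25 is a ubiquitin ligase that acts on RIG-I. Trim25 stood at 90.5, 114 and 94.9 CPM in the controls and at 59.1, 76.5 and 70.4 CPM with palmitate, without overlap. It fell by 0.54 ± 0.12 on the log2 scale (adjusted p = 0.0189). The call was lost without control 2 (0.0502), control 3 (0.0605) or palmitate 3 (0.0571).

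Isg15 encodes a ubiquitin-like protein that is linked to other proteins after interferon, and Usp18 the protease that removes it and also restrains the receptor. Isg15 stood at 14.0, 31.1 and 23.7 CPM in the controls and 8.35, 22.9 and 25.2 CPM with palmitate, and its groups overlap widely. The log2 fold change was −0.29 ± 0.49 (adjusted p = 0.700). Usp18 stood at 54.6, 111 and 109 CPM in the controls and 21.5, 57.5 and 59.0 CPM with palmitate. Within each group the library numbered 1 is far below the other pair, and within each number the palmitate value is below its control, with log2 (CPM + 0.5) differences of −1.32, −0.95 and −0.88 for numbers 1, 2 and 3. The groups overlap, since control 1 is as low as palmitate 2 and 3. The log2 fold change was −0.997 ± 0.474 (adjusted p = 0.188), and with the replicate number as a block it was −1.05 (adjusted p = 0.000562).

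Dtx3l, which encodes a ubiquitin ligase that works with PARP9, stood at 208, 211 and 217 CPM in the controls and 228, 242 and 252 CPM with palmitate. The groups do not overlap, but the difference was small and not called (0.18 ± 0.07, adjusted p = 0.0826), except with upper-quartile scaling (0.0323) and a minimum mean of 5 CPM (0.0444). The other 3 members of the group, Trim30a, Parp9 and Parp14, had log2 fold changes of −0.37 to 0.22. Trim30a was called lower by the block fit.

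The IFIT family, proteins that bind viral RNA and block its translation, held the largest estimates of the set. On the gene matrix, none of its 4 members was called by limma-voom. With all 6 libraries, TMM scaling, its own filter and no block, edgeR called none of them there either. An unadjusted p under 0.05 was met by 2 higher and 0 lower members (18.6% and 19.1% of all genes), and DESeq2 called 2 higher. Ifit3 stood at 36.3, 35.3 and 39.6 CPM in the controls and at 46.0, 136 and 128 CPM with palmitate. The log2 fold change was 1.48 ± 0.41 (adjusted p = 0.0553). Ifit3b, its near copy, stood at 5.78, 8.66 and 8.46 CPM in the controls and 9.92, 30.1 and 29.6 CPM with palmitate. The estimate was 1.60 ± 0.45 (adjusted p = 0.0510, and 0.00947 with the block). For both, palmitate 1 lies slightly above the controls, and the mean of palmitate 2 and 3 is 2.87 times palmitate 1 for Ifit3 and 3.01 times for Ifit3b. Without palmitate 1 the values were 1.83 (adjusted p = 0.00100) for Ifit3 and 1.96 (0.00604) for Ifit3b. In edgeR fits with transcript sums and length offsets, and with a minimum mean of 5 CPM, Ifit3 (adjusted p = 0.0442 and 0.0390) and Ifit3b (0.0380 and 0.0349) were called higher, and so was Ifit3b with upper-quartile scaling (0.0460). Since the copies are near-identical, the split of reads between Ifit3 and Ifit3b is uncertain. Ifit1 and Ifit2 had log2 fold changes of 0.70 ± 0.46 and 0.25 ± 0.16, and the block called Ifit2 higher (adjusted p = 0.0432).

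Among the OAS and other RNA-activated enzymes, 1 of 6 was called, Eif2ak2, and it was lower. It encodes PKR, the kinase that halts translation when it binds RNA duplexes. Eif2ak2 stood at 148, 194 and 182 CPM in the controls and at 92.2, 123 and 132 CPM with palmitate, without overlap. It fell by 0.59 ± 0.15 (adjusted p = 0.0313), and the call was kept without control 1 or palmitate 3 and lost in the other 4 leave-one-out fits (adjusted p = 0.0534 to 0.106). The 5 oligoadenylate synthetase genes and their relatives had log2 fold changes from −0.45 (Oasl1) to 1.26 (Oas2). None was called by edgeR on the gene matrix with all 6 libraries, TMM scaling, its own filter and no block. Without palmitate 1, edgeR called Oas2 (adjusted p = 0.0144) and Oasl2 (0.00928) higher. Oas2 was called higher by DESeq2 (adjusted p = 0.0245) and by the block (0.0185), and not by limma-voom (0.279).

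None of the 9 inhibitors of virus entry, budding and replication was called by edgeR on the gene matrix with these settings. By unadjusted p, 2 were higher and 1 lower at 0.05, DESeq2 called 0 higher and 1 lower, and limma-voom called 0 and 0. Ifitm3, which blocks fusion of incoming virus, stood at 4.40, 5.17 and 5.78 CPM in the controls and 2.46, 4.01 and 3.10 CPM with palmitate. The groups do not overlap, and the log2 fold change was −0.68 ± 0.22 (adjusted p = 0.0606, and 0.0235 with the block). Ifitm3 was also called lower by edgeR with transcript sums without length offsets (adjusted p = 0.0424), and not with the offsets (0.0659). Samhd1 encodes the enzyme that degrades the nucleotides needed for DNA synthesis. It stood at 273, 281 and 295 CPM in the controls and 326, 317 and 321 CPM with palmitate, a small difference without overlap (0.18 ± 0.07, adjusted p = 0.0790). It was called higher with transcript sums and length offsets (0.25, adjusted p = 0.0381), upper-quartile scaling (0.0301) and a minimum mean of 5 CPM (0.0433). The other 7, from Cmpk2 at −0.57 to Isg20 at 0.63, overlapped between the groups. Of these, the block called Isg20 and Slfn8 higher and Cmpk2 and Bst2 lower.

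Of the 5 remaining inducible genes 1 was called, Rtp4, and it was higher. RTP4 belongs to a family that helps receptors reach the cell surface. In the matrix Rtp4 stood at 2.48, 1.44 and 2.11 CPM in the controls and 3.11, 6.33 and 5.01 CPM with palmitate. The groups do not overlap, and the log2 fold change was 1.25 ± 0.31 (adjusted p = 0.0252), lost without control 2, control 3, palmitate 2 or palmitate 3 (0.0724 to 0.0874). The matrix held 13.1% of the reads that the transcript tables assign to Rtp4. Transcript Rtp4-203 alone held 75.2% ± 4.3 (SD, n = 3) of these reads in the controls, at 11.6, 10.2 and 12.8 CPM, and stood at 20.9, 31.3 and 34.8 with palmitate. With all transcripts summed and length offsets the log2 fold change was 1.26 (adjusted p = 0.00518). Ifi27, Ifi35, Ifi44 and Xaf1 had log2 fold changes of −0.13 to 0.33 and were not called.

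**Figure D2:**
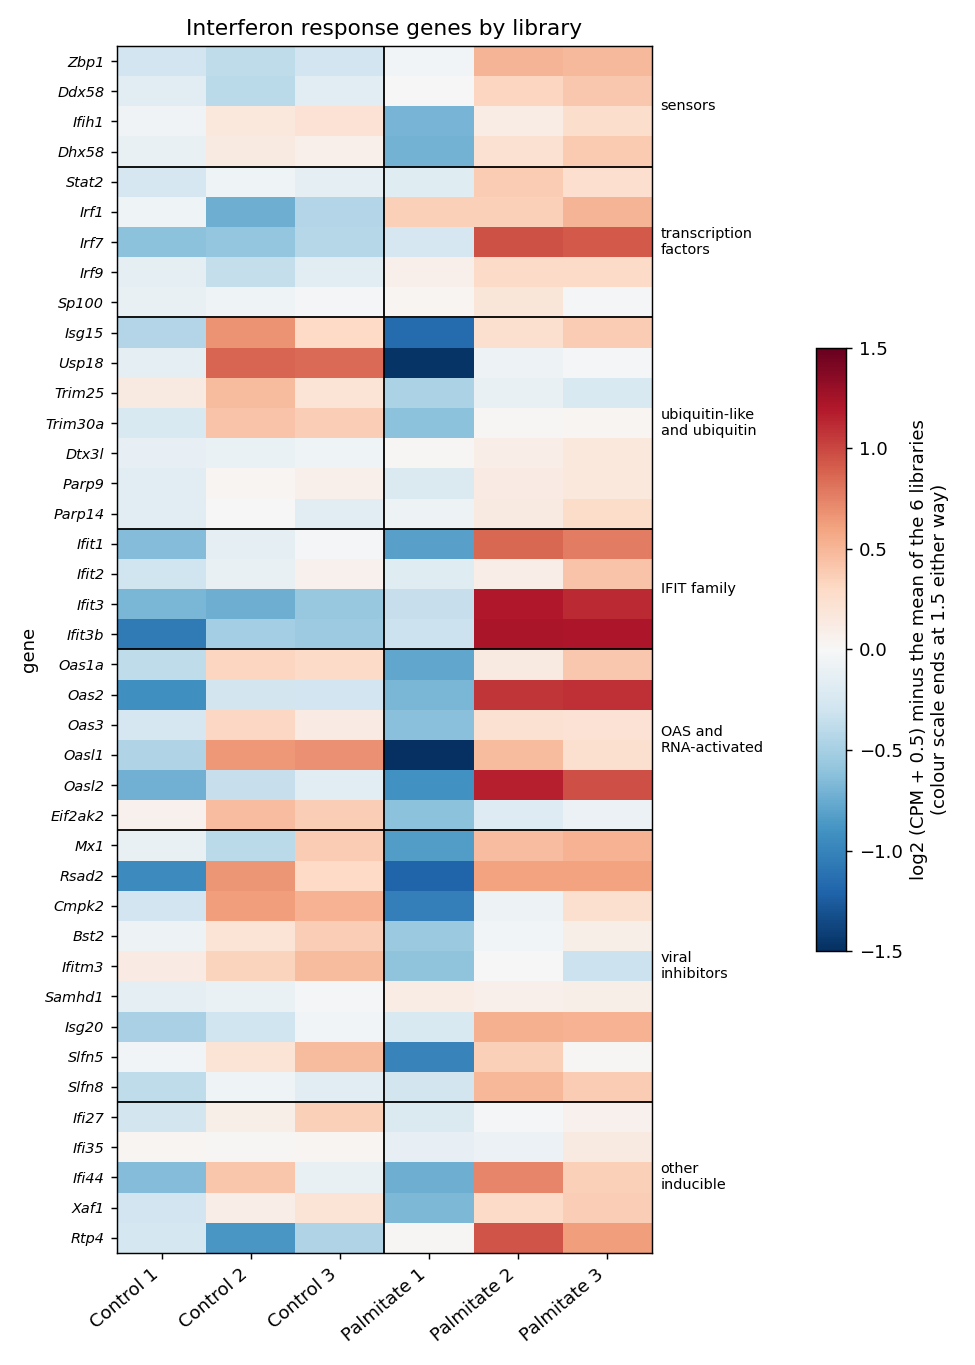
Log2 (CPM + 0.5) of each of the 40 genes in each of the 6 libraries, minus the gene's mean over the 6, with red for higher and blue for lower and the colour scale ending at 1.5 either way. Genes are grouped by role. The column of palmitate 1 is the bluest, with its value the lowest of the palmitate libraries for 38 of 40 genes, and palmitate 2 and 3 resemble each other.

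The members differed between libraries of the same group. Palmitate 1 was the lowest of the 3 palmitate libraries for 38 of 40 members, the exceptions being Sp100 and Samhd1, and this was so for 37.2% of all tested genes. Control 1 was the lowest of the 3 controls for 32 of 40, beside 38.6% of all genes, and control 2 was the lowest for the other 8. Over all 6 libraries, palmitate 1 held the lowest value for 22 members (21.9% of all genes) and control 1 for 12 (14.0%). The highest value lay in palmitate 3 for 14 members, palmitate 2 for 12, control 2 for 8, control 3 for 5, palmitate 1 for 1 and control 1 for 0. No test stands behind these counts, and palmitate 1 was looked at because it stood apart.

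On log2 (CPM + 0.5), the mean of palmitate 2 and 3 lay above palmitate 1 by a median of 0.76 over the members, where all tested genes had a median of −0.00. The difference ran from −0.03 for Samhd1 to 1.97 for Oasl2, and it was over 1 for 16 of 40 members and for 0.978% of all genes. Oasl2, an RNA-binding relative of the synthetases, stood at 8.51 CPM in palmitate 1 and at 37.3 and 32.6 CPM in palmitate 2 and 3. Oasl1 stood at 3.19 CPM against 15.1 and 12.7 CPM. Rsad2, which encodes the antiviral enzyme viperin, stood at 7.87 CPM against 28.7 and 28.8 CPM. These 3 genes, named after their values were seen, were thus 3.65 to 4.36 times as high in the other palmitate pair. Palmitate 2 and 3 differed from each other by a median of 0.11 over the members (0.125 over all genes), and by over 1 for 0 of 40.

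In the controls the same contrast was smaller. The mean of controls 2 and 3 lay above control 1 by a median of 0.28 (−0.01 for all genes), from −0.52 for Irf1 to 1.43 for Rsad2, and by over 1 for 3 members. Rsad2 stood at 9.49 CPM in control 1 and at 29.95 and 23.3 CPM in controls 2 and 3. By role, the palmitate contrast had its highest median in the IFIT family (1.53) and the OAS group (1.40), and its lowest in the transcription factors (0.21). The 8 called members had a median of 0.42 and the 32 others one of 0.94. A wide spread within a group makes a call less likely, so these 2 medians are not independent of the test.

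**Figure D3:**
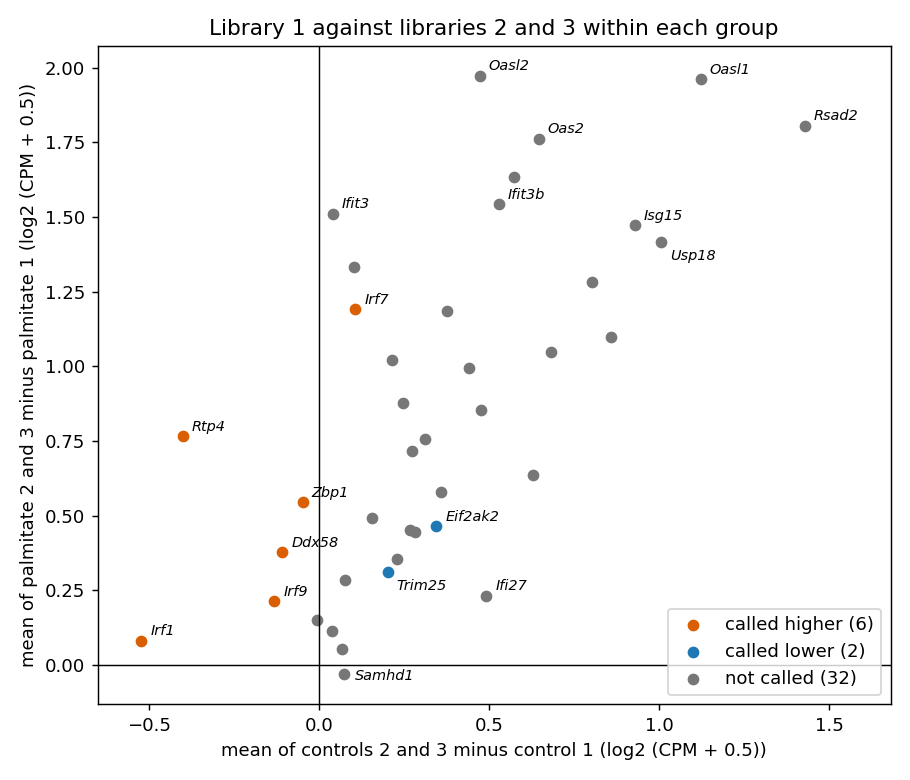
Each point is 1 of the 40 genes: along the x axis, the mean of controls 2 and 3 minus control 1, and along the y axis, the mean of palmitate 2 and 3 minus palmitate 1, both as differences of log2 (CPM + 0.5). Nearly all points lie above 0 on the y axis, 34 of 40 lie above 0 on the x axis, and 5 of the 6 genes called higher (orange) lie left of 0, where control 1 is above the mean of the other controls.

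Palmitate and control libraries that share a number can also be set side by side. For number 1, 18 members were higher with palmitate and 22 lower, with a median log2 difference of −0.12. For number 2, 25 were higher and 15 lower, with a median of 0.18, and for number 3, 29 and 11, with a median of 0.19. Of all genes, 51.3% to 51.5% were higher with palmitate in each. The 6 members called higher were above their control in all 3 numbers, which must be so where the groups do not overlap. Without both libraries of number 1, a setting added after the data were seen, the test called 15 members higher and 5 lower (12.2% and 14.3% of all genes), among them all 8 called with the 6 libraries.

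Values that moved with palmitate 1 were looked for beside this pattern. Its total of 23843158 counts was above that of palmitate 3. The type I interferon genes themselves were barely detected: 17 genes, Ifnb1 and relatives of the alpha family, summed to 26, 52 and 48 counts in the controls and 4, 28 and 18 with palmitate, and 8 of them had no count in any library. Palmitate 1 had the fewest of the palmitate libraries and control 1 the fewest of the controls, also after scaling (0.161 and 0.894 CPM). Ifnb1 had 1, 10 and 4 counts in the controls and 0, 7 and 2 with palmitate. Plasmacytoid dendritic cell markers, a cell type known for making interferon alpha, summed to 5.81 CPM in palmitate 1 and to 10.1 and 16.5 CPM in palmitate 2 and 3. In the controls the order differed, with 11.6 CPM in control 1 and 7.86 and 8.39 CPM in controls 2 and 3. Most of the difference between palmitate 1 and palmitate 3 lay in Pacsin1 (0.161, 1.89 and 8.41 CPM with palmitate). Cox6a2 (1.17, 2.63 and 1.79 CPM) and Ly6d (0.282, 1.06 and 0.835 CPM) were also lowest in palmitate 1. Siglech stood at 0.161, 0.157 and 0.239 CPM and Tcf4 at 4.03, 4.40 and 5.19 CPM. In the controls, Cox6a2 (0.0344, 0.321 and 0.247 CPM) and Ly6d (0.172, 0.401 and 0.388 CPM) were lowest in control 1. Pacsin1, Siglech and Tcf4 were highest there. The part of these in the members' levels was not tested.

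The promoter matches can be read beside the library pattern. The 12 members with the ISRE core letters had a median difference of 1.12 between palmitate 2 and 3 and palmitate 1, from 0.49 to 1.81. The 19 members with an entry and no match had a median of 0.45, from −0.03 to 1.97, and the 9 without an entry one of 0.77. Of the 8 called members, 6 have an entry, and the ISRE core letters stood in the window of none of these 6, while the GAS letters stood in those of Irf1 and Eif2ak2. This comparison was made after the values were seen and has no test.

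The other genes of the pathway form a list of 104, of which 85 were tested: 19 were called higher and 9 lower, and their median log2 fold change was 0.16. Of all tested genes 11.1% were called higher and 11.7% lower, so the higher calls lie above that share and the lower calls near it. The list was chosen with earlier results of these data known, and this excess was not tested. With the block the counts were 29 and 16, beside 16.5% and 16.6% of all genes. Palmitate 1 was the lowest palmitate library for 57 of the 85, and for 37.2% of all tested genes.

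Of the 18 ligand genes 3 reached testing and none was called by edgeR. Their log2 fold changes ran from −1.52 to −0.65. By unadjusted p, 1 was lower at 0.05, DESeq2 called 1 lower, limma-voom 0 and the block 2. The lower share of all genes was 19.1% by unadjusted p, 16.1% with DESeq2, 11.3% with limma-voom and 16.6% with the block. Ifng, which encodes interferon gamma, stood at 1334, 3505 and 2433 CPM in the controls and 838, 1453 and 1098 CPM with palmitate. Here too the library numbered 1 is the lowest of each group, and the palmitate values reach just above control 1. With 1 library left out, the log2 fold change of Ifng ran from −1.40 to −0.74. The receptor genes were expressed at 38.1 to 118 CPM. Ifnar1 stood at 114, 114 and 118 CPM in the controls and 113, 107 and 106 CPM with palmitate (log2 fold change −0.09 ± 0.06, adjusted p = 0.346). Ifnar2 stood at 53.0, 38.1 and 49.5 CPM against 55.6, 51.9 and 48.4 CPM (0.15 ± 0.13, adjusted p = 0.423). Jak1, the receptor kinase, stood at 365, 365 and 352 CPM against 470, 421 and 399.6 CPM, without overlap and just short of a call (0.26 ± 0.08, adjusted p = 0.0503, and 0.0247 with the block). Tyk2 had no count in the matrix, whereas its transcripts came to 14.3 TPM (a level per transcript length) in controls and 15.8 TPM with palmitate.

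Socs1, a feedback inhibitor of the JAK kinases, stood at 28.7, 21.7 and 26.6 CPM against 35.5, 40.5 and 34.1 CPM (0.52 ± 0.12, adjusted p = 0.0220). Its call was lost without control 2, control 3, palmitate 1 or palmitate 2 (0.0541 to 0.0752), and the matrix held 86.5% of its transcript reads.

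Of the 17 tested genes that sense nucleic acid upstream of interferon, 4 were called higher and 3 lower. Cgas, which encodes the DNA sensor that makes cyclic GMP-AMP, had the smallest adjusted p of the pathway list. It stood at 44.0, 53.8 and 47.0 CPM in the controls and at 24.8, 25.8 and 25.2 CPM with palmitate, and fell by 0.93 ± 0.10 (adjusted p = 0.00254, 6 of 6 fits). Sting1, the receptor of that messenger, stood at 43.4, 45.3 and 58.2 CPM against 37.4, 49.96 and 53.2 CPM (−0.07 ± 0.16, adjusted p = 0.792), in a matrix that held 42.6% of its transcript reads. Irf3, the factor activated downstream of STING, stood at 8.19, 3.01 and 2.502 CPM against 4.36, 4.84 and 9.25 CPM (0.41 ± 0.52, adjusted p = 0.595), with 14.3% of its reads in the matrix.

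Among 49 further inducible genes tested, 11 were called higher and 4 lower. Tmem140, which encodes a membrane protein, rose from 4.54, 4.57 and 5.11 CPM to 10.9, 16.8 and 17.4 CPM (1.66 ± 0.20, adjusted p = 0.00312). Ddx60, a helicase gene, rose from 12.4, 12.3 and 11.9 CPM to 19.9, 33.5 and 32.5 CPM (1.23 ± 0.19, adjusted p = 0.00660). Both share with the members the low place of palmitate 1, yet their palmitate 1 values lie well above every control. Slfn1, which is linked to T cell quiescence, rose from 76.7, 64.6 and 69.9 CPM to 113, 142 and 146 CPM (0.92 ± 0.11, adjusted p = 0.00312). Ms4a4b, a T cell membrane protein gene, rose from 276, 232 and 223 CPM to 467, 364 and 379 CPM, with palmitate 1 the highest (0.73 ± 0.12, adjusted p = 0.00699). Trim12a, a relative of Trim5, rose from 65.7, 51.4 and 62.4 CPM to 92.1, 98.6 and 95.5 CPM (0.67 ± 0.10, adjusted p = 0.00529). Pnpt1, which encodes an RNA-degrading enzyme of mitochondria, stood at 192, 228 and 221 CPM in the controls and 120, 141 and 138 CPM with palmitate, and fell by 0.68 ± 0.09 (adjusted p = 0.00434). The calls of these 6 genes were kept in 6 of 6 leave-one-out fits.

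**Figure D4:**
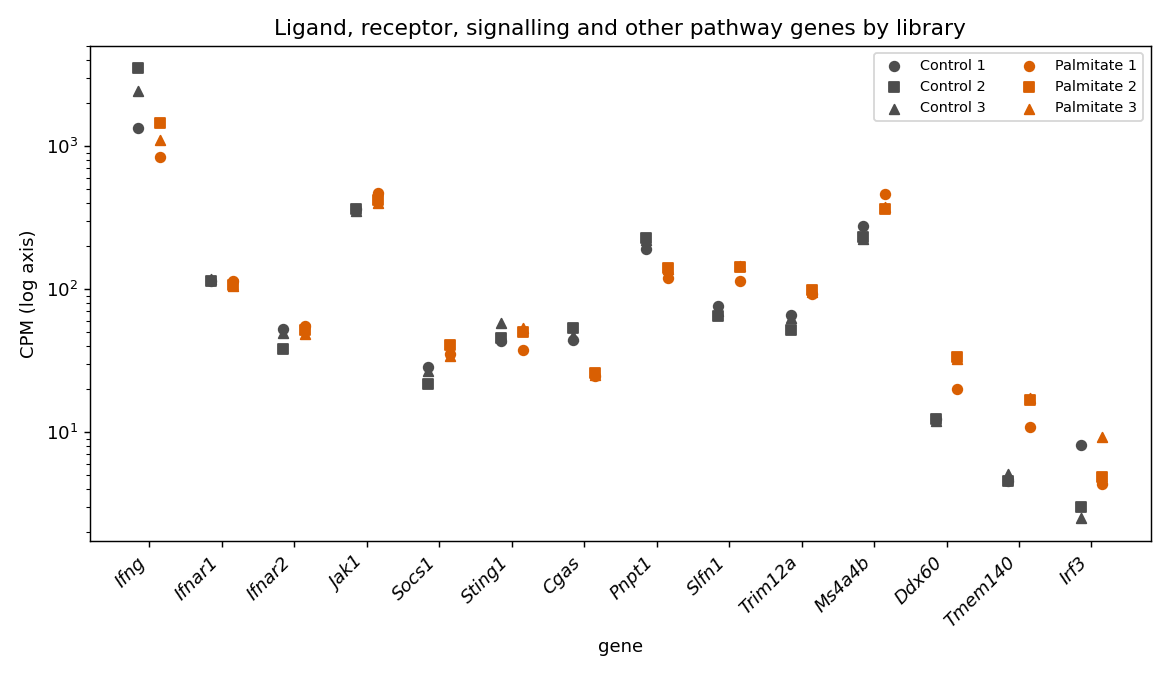
CPM on a log axis of 14 genes of the pathway that are not among the 40, in 3 control libraries (grey) and 3 palmitate libraries (orange), with a marker shape for each library number. Slfn1, Trim12a, Ms4a4b, Ddx60 and Tmem140 have all palmitate points above all control points, Cgas and Pnpt1 all below, and the receptor genes Ifnar1 and Ifnar2 lie between 38.1 and 118 CPM. Irf3 and Sting1 are counted only in part in the matrix.

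The level of the members was compared per length, in TPM summed over each gene's transcripts. In the controls Ifi27 was the highest at 173 ± 34 TPM (SD, n = 3), followed by Bst2 at 160 ± 23, Samhd1 at 145 ± 7, Trim30a at 108 ± 20 and Irf1 at 102 ± 28. Ifi27 and Bst2, Bst2 and Samhd1, and Trim30a and Irf1 lie within each other's spread, while Samhd1 and Trim30a do not. The lowest were Ifi44 at 2.47 ± 1.08 TPM and Oas2 at 1.05 ± 0.33 TPM. With palmitate Irf1 stood at 183 ± 8 TPM, Samhd1 at 179 ± 3 and Ifi27 at 162 ± 10. Irf7, at 12.2 ± 1.7 TPM in the controls, and Zbp1, at 64.8 ± 2.0 TPM, reached 27.2 ± 11.0 and 97.2 ± 17.6 TPM.

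Samhd1 was not called as a gene by edgeR on the gene matrix with TMM scaling and its own filter. Of its 6 transcripts with a mean of at least 5 CPM in a group, 4 did not overlap between the groups, 3 higher with palmitate and 1 lower. The same share over all transcripts is not given here. Of all tested genes, 21.6% lay wholly above and 21.2% wholly below. Samhd1-203, a protein-coding form, stood at 94.2, 121 and 127 CPM in the controls and at 51.0, 67.1 and 52.2 with palmitate, all palmitate values below all controls. Samhd1-206, also protein-coding, stood at 93.0, 73.9 and 79.2 in the controls and at 159, 148 and 170 with palmitate, all above. The others that lay wholly above were Samhd1-204, annotated for nonsense-mediated decay, at 2.96 to 10.2 and 10.8 to 24.2 CPM, and Samhd1-208, a retained-intron form, at 10.8 to 15.4 and 16.0 to 19.1 CPM. The share of Samhd1-203 in the gene's reads was 40.2% ± 5.0 (SD, n = 3) in controls and 17.7% ± 3.0 with palmitate, and that of Samhd1-206 was 29.1% ± 4.3 and 49.5% ± 3.2. The pattern was picked out after the values were seen, it has no test, and Salmon estimates how reads of shared sequence divide among transcripts. In Zbp1, the retained-intron transcript Zbp1-203 stood at 8.70, 3.23 and 4.55 CPM in the controls and 15.5, 15.8 and 16.7 with palmitate, and held 10.9% ± 5.4 and 20.8% ± 4.2 of the gene's reads.

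**Figure D5:**
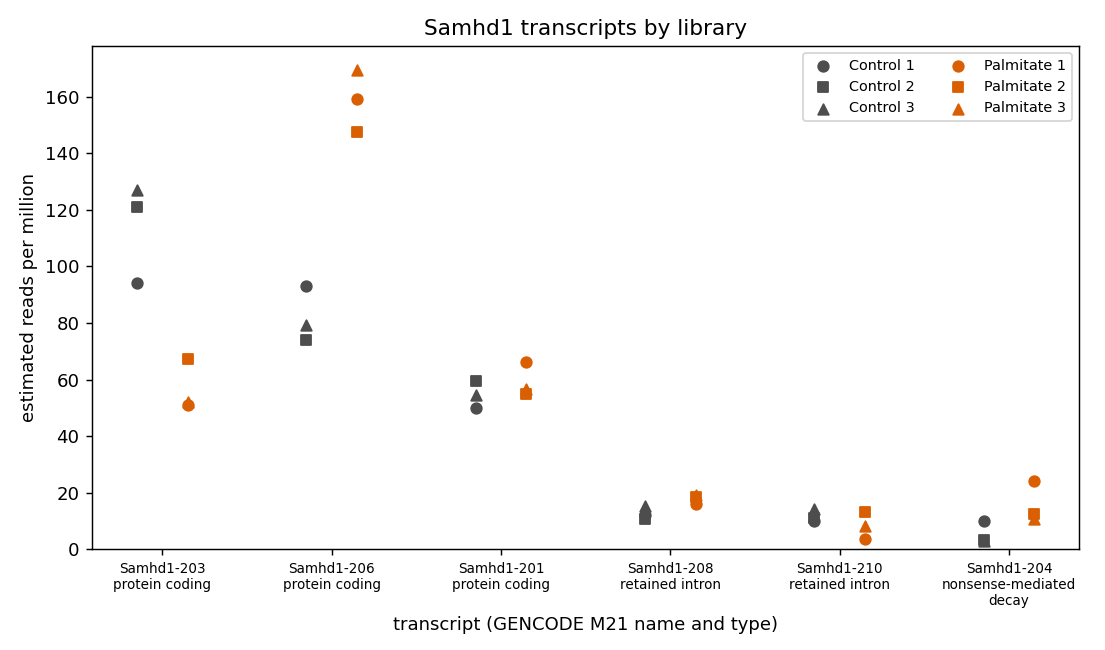
Estimated reads scaled to a common library total (CPM) for the 6 Samhd1 transcripts with a mean of at least 5 in a group, in 3 control libraries (grey) and 3 palmitate libraries (orange), with names and types from GENCODE M21. Samhd1-203 lies between 94.2 and 127 in the controls and between 51.0 and 67.1 with palmitate, whereas Samhd1-206 lies between 73.9 and 93.0 in the controls and between 148 and 170 with palmitate.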

How the data were processed

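Bulk RNA was sequenced from 3 palmitate and 3 control samples. Per the labels' protocols, RNA was column-purified and libraries were built with the SMARTER kit for mRNA. Tools named in the submitters' processing notes are Salmon 1.10.0, Trim Galore 0.6.10 and DESeq 1.42.0, with the build GRCm39; settings and strand were not given in the sources used here. In 1 gene matrix the authors deposited expected (estimated) counts in whole numbers, used in full (0 columns and 0 entries left out), and per library a transcript table with expected counts and TPM values.

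The 40 genes, their roles, the 104 other pathway genes and the marker lists were chosen with earlier results of these data known. Symbols came from a gene name table and GENCODE M21, an older build than the submitters', so gene coordinates are not given; promoters are RefSeq's on GRCm38.p6. The matrix held under 90% of the transcript reads for 1935 of 9847 genes with at least 500 such reads, and of the 40 for Rtp4 (13.1%), Cmpk2 (77.8%), Irf7 (83.5%) and Stat2 (89.4%).

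Testing was done with edgeR 4.0.16 in R 4.3.3: TMM scaling, the package's low-count filter, a robust quasi-likelihood fit of the group alone, and two-sided p-values adjusted by Benjamini-Hochberg over all 12068 genes. Fold changes are log2 values of palmitate over control, ± SE, and adjusted p-values are edgeR's where no other tool is given. Contrasts between libraries used log2 (CPM + 0.5). The fits were first tested on simulated counts. Every library's value is given for called members, for uncalled members without overlap and for Zbp1, Irf1, Irf7, Irf9, Stat2, Isg15, Usp18 and Ifih1, and, of the pathway list, for the 8 called genes with the smallest adjusted p and 11 genes always listed, of which 1 is not reported here. Other genes given with values were named after these were seen. Promoters of called genes with an ISRE core match were to be shown, and no gene met this.

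The labels number the libraries 1 to 3 in both groups. Across genes, deviations from the group mean correlated by 0.30, 0.19 and 0.17 between same-numbered libraries and by −0.25 to 0.08 between the rest. Since all 3 exceed 0.1, the numbers were taken to pair the libraries, and a second fit had the number as a block. Deviations within a group cancel out, so these correlations depend on one another. The main calls come from the fit without the block and do not use the pairing. Replicates differed beyond sampling noise (chi-square per gene 11.4 to 37.9). Further settings were scaling by RLE and by upper quartile, no filter, at least 5 CPM on average, limma-voom (limma 3.58.1) and DESeq2 1.42.0, summed transcripts with and without length offsets, each library left out, and, added after the data were seen, both libraries of number 1 left out.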

Additional observations from a re-analysis of the deposited data

How the results depend on the processing

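The test called 2759 of all genes, and 690 to 3433 when 1 library was left out. For the 40 interferon genes, 6 were called higher and 2 lower, and leaving out 1 library gave 0 to 14 higher and 0 to 3 lower. For the other pathway genes, 19 were called higher and 9 lower, and leaving out 1 library gave 6 to 24 higher and 3 to 10 lower. The median log2 fold change of the 40 genes was 0.15, and −0.02 to 0.29 with 1 library left out. Without both libraries of number 1, a setting added after the data were seen, 15 of the 40 were called higher and 5 lower. Fewer libraries were tested in each of these fits, and the cause of the differences among them was not tested.

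With the replicate number as a block, 11 of the 40 genes were called higher and 7 lower. Of the other pathway genes 29 and 16 were called, beside 16.5% and 16.6% of all genes. The block lost the call of Irf7 and added 11 others among the 40, and limma-voom and the fit without a filter also lost Irf7. Of the other pathway genes, upper-quartile scaling called 28 higher and 5 lower (13.7% and 8.72% of all genes) and DESeq2 23 and 14 (12.1% and 16.1%). Upper-quartile scaling called 1651 of all genes higher and 1052 lower, where the main fit called 1343 and 1416.

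No called gene of the 40 changed sign under any setting run. Some uncalled genes changed sign, with main estimates from −0.29 (Isg15) to 0.33 (Ifi44) and an adjusted p over 0.05 in each case. Dhx58 (−0.00) stood at 0.0569 with upper-quartile scaling, 0.0234 with a minimum mean of 5 CPM, 0.0506 with transcript sums and length offsets and 0.202 without both libraries of number 1. Ifi35 (−0.05) stood at 0.00957 with upper-quartile scaling. Xaf1 (0.04) stood at −0.0313 with limma-voom, −0.00953 with the block and −0.00211 with transcript sums and length offsets, and Rsad2 (0.06) at −0.0331 with limma-voom. With 1 library left out, the log2 fold changes ran from −0.36 to 0.0669 for Ifih1, −0.22 to 0.27 for Dhx58, −0.55 to 0.0645 for Isg15, −0.0349 to 0.15 for Parp9, −0.38 to 0.17 for Oas1a, −0.24 to 0.14 for Oas3, −0.0386 to 0.51 for Mx1, −0.30 to 0.46 for Rsad2, −0.29 to 0.0274 for Ifi27, −0.0646 to 0.67 for Ifi44, −0.14 to 0.30 for Xaf1 and −0.17 to 0.0737 for Sting1. Type I interferon genes had at most 52 counts a library in sum, so differences in them are not resolved at this depth.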
